A study of Homo sapiens with 2 samples.

Results

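The genes described here are 41 regulators of mitosis and proteins of the kinetochore. They include the cyclins and kinases that drive cells from G2 into mitosis, the spindle checkpoint, the centromere proteins (CENP) and the NDC80 complex. Kinesin motors were left out, except CENPE, which is listed as a centromere protein. The genes were taken as a list of symbols and matched to the Ensembl identifiers of the deposited values. All 41 were found among the 28303 genes listed. HGC27 cells, an established line from a human gastric cancer, were transfected with the empty plasmid pcDNA3.1-control or with pcDNA3.1-linc01133, which carries the long non-coding RNA LINC01133, and were harvested after 48 h. Each group held 1 library of poly(A)-selected RNA, so no difference has a replicate check and no p-value is given.

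At mitotic entry, cyclin B bound to CDK1 phosphorylates many proteins, and the chromosomes condense. Kinetochores, layered protein assemblies on the centromeres, then bind spindle microtubules through the NDC80 complex, while the spindle checkpoint holds back the anaphase-promoting complex until every chromosome is attached. Many of these genes are transcribed mainly in G2 and M, so in bulk RNA a larger share of dividing cells and more RNA per cell cannot be told apart.

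Levels are FPKM, fragments divided by merged exon length and by library size, and log2 ratios compare FPKM + 1 with LINC01133 to FPKM + 1 in the control. The control library held 15666629 counted fragments and the LINC01133 library 16302581. Intervals in brackets are 95% and exact, and cover counting error only. A ratio of levels between 2 genes also depends on the gene lengths used, which its interval leaves out. LINC01133 had an FPKM of 0.0809 (0.0220 to 0.207) in the control and 1.44 (1.13 to 1.81) in the LINC01133 library, from 4 and 74 fragments. Of 7 gastric epithelial markers 5 were listed, with a summed FPKM of 0.361 and 0.498 and KRT18 and MUC5AC at 0 in both libraries, so the defining epithelial markers were at or near 0. The 4 fibroblast markers summed to 230 and 188, mostly from COL1A1 (209 and 162), while DCN went the other way (15.1 and 21.1). The 4 mesenchymal markers summed to 205 and 222, mostly from VIM (198 and 210), with CDH2 near 0 (0.0516 and 0.0744). The only listed blood and endothelial marker, PTPRC, had 0.0305 and 0.0659. The part of all these markers in the results below was not tested.

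Mitotic and kinetochore genes were more often higher than lower in the library with LINC01133. All 41 passed the filter of a mean FPKM of at least 1, as 11945 genes did in all. A difference of 2-fold or more in FPKM + 1 towards the LINC01133 library was found for 10 of the 41 (11.9% of all genes past the filter) and towards the control for 0 (0.444%). By the trimmed mean of M values (TMM), another scaling, 9 were 2-fold higher (7.71% of all genes). At 1.5-fold, with the deposited scaling, 21 were higher and 3 lower (26.8% and 5.29%). The 10 genes past 2-fold as deposited were CENPQ, CENPK, CENPE, KNL1, CDK1, TOP2A, TTK, NUF2, CENPF and NDC80. A further 5 (CENPC, CENPH, MAD2L1, BUB1B and CENPU) had an FPKM ratio of at least 2 but stayed under 2-fold in FPKM + 1. The share of all genes with an FPKM ratio of at least 2 was not counted, and the 11.9% does not apply to these 5. The median log2 ratio was 0.74, against 0.10 over all genes, and the genes ran from -0.78 for CENPM to 2.21 for CENPQ. The log2 ratio was above 0 for 32 genes, against 55.4% of all genes. That number was 29 with median-of-ratios scaling (50.2% of all genes), 27 with TMM (46.1%) and 24 with upper-quartile scaling (38.5%), which moved the median of all genes by -0.10, -0.18 and -0.36. By counting error alone, the interval of the ratio lay above 1 for 30 genes (42.6% of all genes with whole fragments) and below 1 for 8 (32.2%). It held 1 for CENPO and CENPW, and CDC25C has no interval because its values were not whole numbers of fragments.

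**Figure D1:**
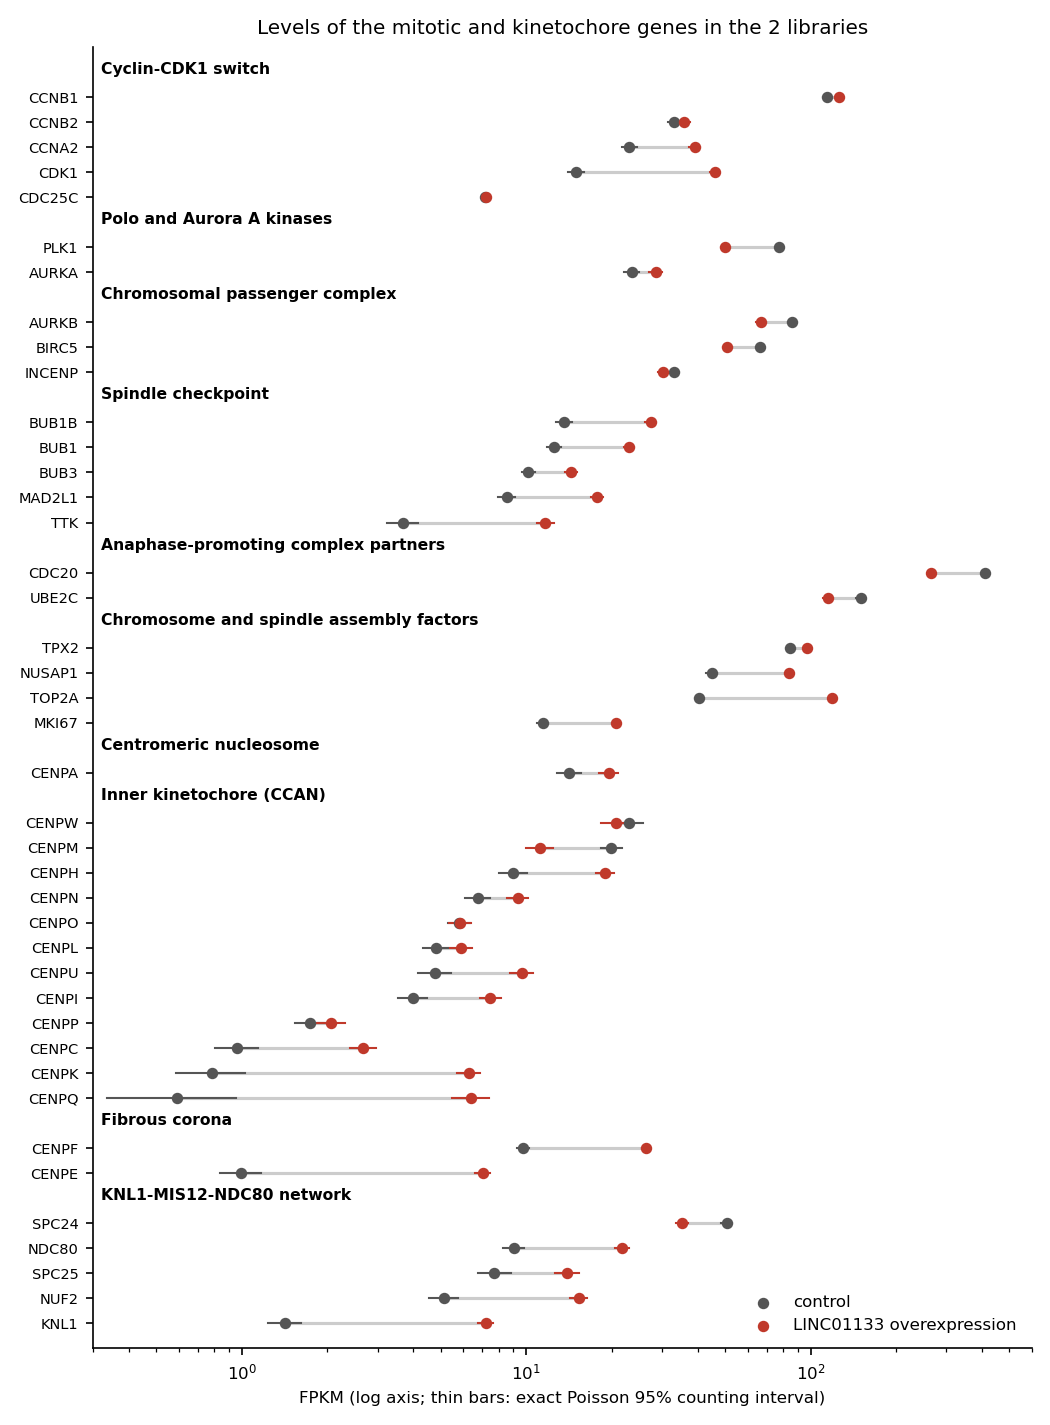
FPKM of each gene in the control (grey) and the LINC01133 overexpression library (red) on a log axis, grouped by role, with exact Poisson 95% counting intervals. CDC20 is the highest gene in both libraries, and the widest gaps between the libraries belong to low genes such as CENPQ (0.589 and 6.37), CENPK and CENPE.

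Promoters of genes at both ends of the range are shown, so that the letters G2/M promoters often carry can be compared between them. At a mean FPKM of at least 2 the highest log2 ratios belonged to CENPQ, CENPK and CENPE and the lowest to CENPM, CDC20 and PLK1. The 250 bases before the RefSeq start (GRCh38.p14) are given 5′ to 3′ on the strand of the gene. Capitals mark the CCAAT box (CCAAT, or ATTGG on the other strand) and the cell cycle genes homology region, searched as TTTGAA and TTTAAA on both strands (TTCAAA is the reverse of TTTGAA, and TTTAAA is its own reverse). CENPM had no entry.
CENPQ (chr6:49463120-49463369, plus strand): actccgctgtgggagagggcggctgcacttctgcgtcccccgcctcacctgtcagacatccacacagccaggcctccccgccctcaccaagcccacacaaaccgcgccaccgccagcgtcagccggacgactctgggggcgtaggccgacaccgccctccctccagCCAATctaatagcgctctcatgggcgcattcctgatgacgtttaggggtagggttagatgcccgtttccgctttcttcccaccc
CENPK (chr5:65563169-65563418, minus strand): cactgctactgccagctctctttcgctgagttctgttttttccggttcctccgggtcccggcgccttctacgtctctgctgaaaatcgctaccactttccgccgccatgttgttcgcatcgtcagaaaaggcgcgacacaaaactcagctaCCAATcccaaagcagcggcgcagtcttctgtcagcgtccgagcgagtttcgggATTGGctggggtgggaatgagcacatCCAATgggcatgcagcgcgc
CENPE (chr4:103198344-103198593, minus strand): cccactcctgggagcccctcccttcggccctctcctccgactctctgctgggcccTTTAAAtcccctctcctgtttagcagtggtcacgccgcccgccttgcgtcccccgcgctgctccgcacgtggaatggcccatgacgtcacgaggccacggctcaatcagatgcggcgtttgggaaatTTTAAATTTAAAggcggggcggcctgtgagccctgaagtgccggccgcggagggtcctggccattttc
CDC20 (chr1:43358731-43358980, plus strand): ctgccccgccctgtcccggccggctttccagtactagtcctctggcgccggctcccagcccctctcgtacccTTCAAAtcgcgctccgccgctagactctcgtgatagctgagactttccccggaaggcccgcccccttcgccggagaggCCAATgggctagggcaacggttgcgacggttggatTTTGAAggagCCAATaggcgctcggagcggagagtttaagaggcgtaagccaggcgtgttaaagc
PLK1 (chr16:23678639-23678888, plus strand): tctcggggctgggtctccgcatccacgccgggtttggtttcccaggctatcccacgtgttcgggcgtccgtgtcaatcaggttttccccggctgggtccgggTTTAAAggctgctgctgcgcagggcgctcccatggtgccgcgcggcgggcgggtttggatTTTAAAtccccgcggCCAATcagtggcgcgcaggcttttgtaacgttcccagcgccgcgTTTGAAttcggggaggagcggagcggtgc

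The homology region and CCAAT each occurred among higher and lower genes. CDC20 and PLK1, which were lower, hold TTTGAA at 65 and 29 bases before the start and CCAAT at 55 and 73. CDC20 also holds TTTGAA on the other strand at 178 and CCAAT at 100, and PLK1 also holds TTTAAA at 148 and 88. CENPE, which was higher, holds TTTAAA at 195, 68 and 62 bases before the start, and CENPQ and CENPK hold CCAAT and neither form of the homology region in these windows. A window from 250 bases before to 50 after the start was found for 31 of the 41 genes, 38 windows in all, and in 1 of them 2 different motifs overlapped. TTTGAA or TTTAAA was present in 60.5% of the members' windows, against 23.99% of all 35116 windows, and CCAAT in 73.7%, against 34.6%. Both kinds were present in 47.4%, against 9.27%. The 21 genes with TTTGAA or TTTAAA had a median log2 ratio of 0.80, from -0.63 to 2.01, and the 10 without had 0.75, from -0.51 to 2.21. The 25 genes with CCAAT had a median of 0.74, from -0.63 to 2.21, and the 6 without (BUB1B, CENPI, CENPO, CENPE, NDC80 and NUF2) had 1.07, from 0.01 to 2.01. AURKB, INCENP, CENPW and SPC24, the other genes with a window and a log2 ratio below 0, hold CCAAT as CDC20 and PLK1 do. Of these, the ratio of CENPW had an interval that held 1. INCENP and AURKB turned above 0 with the trends of all genes on GC content and transcript length subtracted. CCAAT is held by 25 of the 31 genes with a window, and the 6 without it all had a log2 ratio above 0 as deposited. Whether CCAAT goes with the direction was not tested.

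The partners of the cyclin-CDK1 switch differed from each other. CDK1, the kinase that drives mitotic entry, had an FPKM of 14.97 in the control (14.02 to 15.97) and 45.9 in the LINC01133 library (44.3 to 47.6), from 922 and 2944 fragments, a ratio of 3.07 (2.85 to 3.31). Its early partner cyclin A2, encoded by CCNA2, had 23.1 in the control and 39.1 with LINC01133, a ratio of 1.69 (1.57 to 1.83). Cyclin B1, the main mitotic cyclin, was nearly level, with CCNB1 at 114 and 126 and a ratio of 1.11 (1.06 to 1.15). The transcript of the second B-type cyclin, CCNB2, had 33.2 and 35.7, and that of CDC25C, a phosphatase that removes the inhibitory phosphates of CDK1, 7.16 and 7.21. All 5 log2 ratios were above 0 (55.4% of all genes). Those of CCNB1 and CCNB2 (0.15 and 0.11) and of CDC25C (0.01) turned below 0 by TMM, so a direction is not given for these 3. The level of CCNB1 was 7.61 (7.09 to 8.18) times that of CDK1 in the control and 2.75 (2.62 to 2.87) times in the LINC01133 library, whereas CCNB1 over CCNB2 was 3.44 (3.24 to 3.65) and 3.53 (3.34 to 3.73). With fragments divided by the length of a representative transcript in place of merged exons, CCNB1 over CDK1 was 4.45 and 1.60.

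Most kinases and partners of later mitosis were lower as deposited, and AURKA was higher. PLK1, the Polo kinase needed for centrosome maturation and spindle formation, had 77.4 in the control and 49.99 with LINC01133, from 5774 and 3879 fragments, a ratio of 0.646 (0.6197 to 0.673). AURKA, the Aurora kinase of the spindle poles, had 23.5 and 28.5, a ratio of 1.21 (1.12 to 1.32). Its log2 ratio was 0.27 as deposited, 0.16 by median-of-ratios scaling and 0.06 by TMM, and turned to -0.13 by upper-quartile scaling. The 3 listed genes of the chromosomal passenger complex, which corrects faulty attachments and guides cytokinesis, were each lower in the LINC01133 library as deposited. Each of the 3 has a GC content above 50%, and of all genes at 50% or more 80.7% had a log2 ratio below 0. With the trends of all genes on GC content and transcript length subtracted, the log2 ratios of INCENP and AURKB turned above 0 (0.29 and 0.07) and that of BIRC5 stayed below (-0.17). The kinase AURKB had 86.05 and 66.98, with a ratio of 0.778 (0.738 to 0.821). The subunit survivin, encoded by BIRC5, had 66.3 and 50.9 (0.768 (0.732 to 0.805)), and the scaffold INCENP 32.99 and 30.3 (0.919 (0.867 to 0.975)). AURKB over BIRC5 was 1.298 (1.24 to 1.36) in the control and 1.32 (1.25 to 1.39) in the LINC01133 library, and the 2 intervals overlap. CDC20, the activator of the anaphase-promoting complex, had the highest level of the list in both libraries, 409 in the control and 264 with LINC01133, from 13059 and 8785 fragments. Its ratio was 0.646 (0.629 to 0.664), and that of UBE2C, the ubiquitin-conjugating enzyme of the same complex, was 0.7701 (0.7297 to 0.813), with an FPKM of 149.7 and 115.

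All 5 listed spindle checkpoint genes were higher in the LINC01133 library, also by the 3 other scalings. Of all genes, 55.4% had a log2 ratio above 0 as deposited and 38.5% to 50.2% by those scalings. With the trends on GC content and length subtracted, 4 of the 5 stayed above 0 (62% of all genes) and BUB3 turned to -0.24. TTK, the kinase MPS1 that starts checkpoint signalling, differed most, with 3.68 in the control and 11.7 with LINC01133, from 264 and 872 fragments, a ratio of 3.17 (2.76 to 3.66). MAD2L1, whose product binds and inhibits CDC20, had 8.53 and 17.8 (2.09 (1.92 to 2.28)). BUB1B, encoding the checkpoint protein BUBR1, had 13.5 and 27.4 (2.02 (1.87 to 2.19)), and 10.2% of its exon bases are shared on the same strand with the readthrough gene BUB1B-PAK6. The kinase BUB1 had 12.5 and 22.9 (1.83 (1.71 to 1.97)), and BUB3, which carries BUB1 and BUBR1 to kinetochores, differed least, with 10.2 and 14.4 (1.41 (1.32 to 1.52)). The level of CDC20, the target of the checkpoint, over that of MAD2L1 went from 47.96 (44.6 to 51.6) to 14.9 (14.1 to 15.7).

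Among the factors of chromosome and spindle assembly, TOP2A, the topoisomerase that untangles sister chromatids, had the largest gain in FPKM of the whole list, from 40.5 in the control to 119, on 4080 and 12441 fragments (2.93 (2.83 to 3.04)). It ranked 10 of 41 by level in the control and 3 in the LINC01133 library. MKI67, the proliferation marker Ki-67 that coats mitotic chromosomes, had 11.4 and 20.6 (1.81 (1.72 to 1.902)). The microtubule-binding protein NUSAP1 had 44.9 and 84.1 (1.87 (1.77 to 1.98)), but 62.2% of its exon bases lie also in the gene AC087721.2 on the same strand. TPX2, the spindle assembly factor that activates Aurora A, had 84.5 and 97.4, a log2 ratio of 0.20 that was -0.01 by TMM.

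The centromere proteins spanned the whole range of the list. CENPA, the histone H3 variant that marks the centromere, had 14.1 in the control and 19.5 with LINC01133 (1.38 (1.22 to 1.56)). CENPC, which links it to the outer kinetochore, had 0.963 (0.805 to 1.14) and 2.67 (2.41 to 2.96), a ratio of 2.77 (2.26 to 3.41) from 130 and 375 fragments. Its log2 ratio turned from 0.90 to -0.07 with the trends on GC content and length subtracted. Of the 12 inner kinetochore genes of the constitutive centromere-associated network, 10 had a log2 ratio above 0 (55.4% of all genes), or 9 by TMM (46.1%). At least 2-fold higher were 2 of the 12, near the 11.9% of all genes.

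Extremes stood side by side within groups of subunits that work together. In the group of CENP-H, I, K and M, CENPK (chr5:65517766-65563171, minus strand, GRCh38) had 0.785 (0.588 to 1.03) and 6.29 (5.72 to 6.902), from 53 and 442 fragments, a ratio of 8.01 (6.02 to 10.9). CENPM (chr22:41938721-41947164, minus strand) was the lowest of all members in log2 ratio, with 19.9 (18.3 to 21.7) and 11.2 (9.99 to 12.5), a ratio of 0.561 (0.488 to 0.645). CENPH had 8.99 and 18.9 (2.104 (1.84 to 2.41)) and CENPI 3.99 and 7.48 (1.88 (1.62 to 2.18)). The level of CENPM over that of CENPK was 25.4 (19.1 to 34.3) in the control and 1.78 (1.54 to 2.06) in the LINC01133 library, and CENPM passed from above CENPH to below it. By representative transcript length, CENPM over CENPK was 18.1 and 1.27.

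In the group of CENP-O, P, Q and U, CENPQ (chr6:49463378-49493107, plus strand) had the largest ratio of the list. It had 0.589 (0.337 to 0.957) in the control and 6.37 (5.47 to 7.37) in the LINC01133 library, a ratio of 10.8 (6.48 to 19.3), and with 16 and 180 fragments it had the fewest counts of the list. CENPU, the subunit that recruits PLK1, had 4.78 and 9.64 (2.02 (1.72 to 2.38)). CENPO was level at 5.82 and 5.85 (1.005 (0.888 to 1.14)), and CENPP had 1.74 and 2.06 (1.18 (1.005 to 1.397)), with TMM and upper-quartile log2 ratios of 0.02 and -0.11. The values of CENPO and CENPP, and less so of CENPN, PLK1 and CENPU, are uncertain, since 31.4%, 42.7%, 22.8%, 12.5% and 11.7% of their exon bases lie in exons of genes on the other strand and the strand setting of the counting is unknown here. CENPO over CENPQ went from 9.87 (6.02 to 17.4) to 0.918 (0.773 to 1.09), or from 12.4 to 1.15 by representative transcript length. Of the remaining inner subunits, CENPL had 4.81 and 5.904 and its partner CENPN, which reads the CENP-A nucleosome, 6.76 and 9.32, and the log2 ratio of CENPL (0.25) turned to -0.10 by upper-quartile scaling. CENPW, the histone-fold partner of CENP-T, had 22.96 and 20.7, a ratio of 0.901 (0.759 to 1.07).

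**Figure D2:**
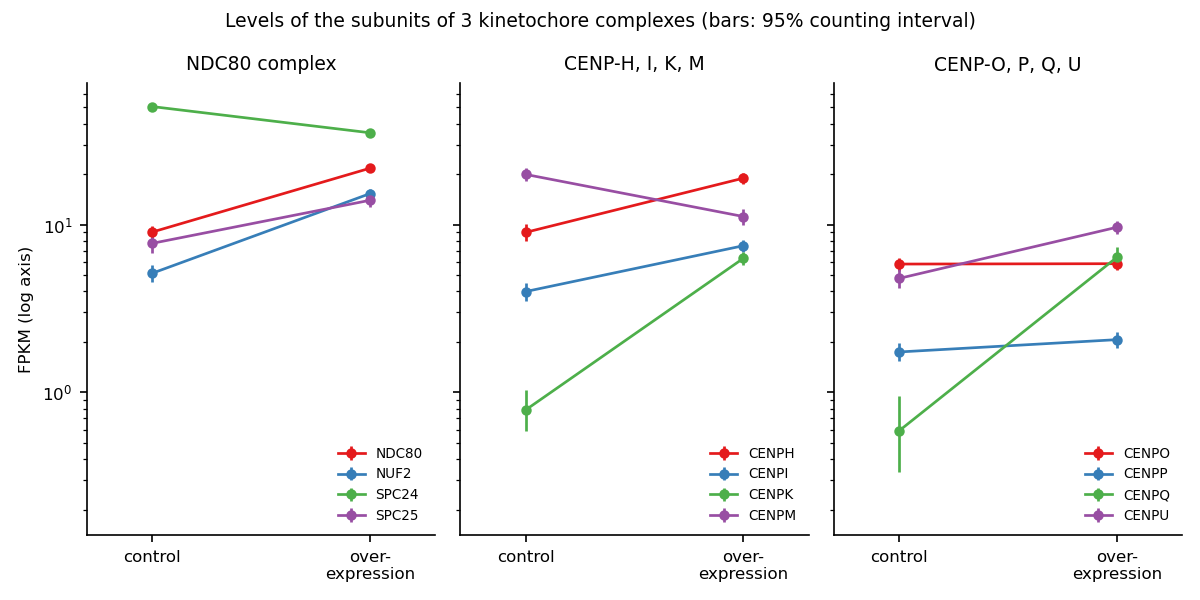
FPKM (log axis) of the subunits of the NDC80 complex and of 2 inner kinetochore groups in the control and overexpression libraries, with 95% counting intervals as bars. The subunits lie closer together in the LINC01133 library in each panel, and the lines of CENPM and CENPH cross.

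The outer kinetochore genes were higher with LINC01133, except SPC24. CENPE (chr4:103105806-103198409, minus strand), a motor of the fibrous corona that carries chromosomes to the spindle equator, had 0.994 (0.839 to 1.17) and 7.03 (6.62 to 7.46), from 147 and 1082 fragments, a ratio of 7.07 (5.95 to 8.46). CENPF, the large coiled-coil protein of the corona, had 9.74 and 26.3 (2.7003 (2.56 to 2.85)). KNL1, the scaffold on which BUB1, BUB3 and BUBR1 assemble, had 1.41 and 7.19, from 227 and 1202 fragments, a ratio of 5.09 (4.41 to 5.89). By TMM and median-of-ratios scaling these 3 genes stayed at least 2-fold higher, and by upper-quartile scaling CENPF came to a log2 ratio of 0.94.

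NDC80 and NUF2, the 2 microtubule-binding subunits of the NDC80 complex, were both at least 2-fold higher, with FPKM of 9.02 and 21.7 (2.402 (2.17 to 2.67)) and of 5.13 and 15.3 (2.98 (2.597 to 3.43)). The log2 ratio of NDC80 was 0.97 by TMM and 0.78 by upper-quartile scaling, under 2-fold. SPC25, on the side that faces the chromosome, had 7.73 and 13.96 (1.81 (1.53 to 2.13)), and a log2 ratio of 0.11 with the trends subtracted. Its direct partner SPC24 was lower instead, with 50.6 in the control and 35.3 in the LINC01133 library, from 2250 and 1634 fragments (0.698 (0.654 to 0.744)). The 4 proteins form the complex in equal numbers, but the highest and the lowest of the 4 transcript levels were 9.87-fold apart in the control and 2.53-fold in the LINC01133 library. SPC24 over NUF2 went from 9.87 (8.69 to 11.2) to 2.31 (2.12 to 2.51). With fragments divided by the length of a representative transcript in place of merged exons, that ratio was 7.09 and 1.66.

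Levels across the whole list were also closer together in the LINC01133 library. The SD of log2 FPKM over the 41 genes was 2.18 in the control and 1.57 in the LINC01133 library, and over the genes past the filter with a value above 0 it was 2.01 and 1.74. The lowest member had 0.589 in the control (CENPQ) and 2.06 in the LINC01133 library (CENPP), and the highest was CDC20 in both. Of the 10 genes at least 2-fold higher, 8 had a control FPKM under 10, as did 19 of the 41. Across the 41 genes, which share 2 libraries and are no replicates, Spearman's rho between log2 ratio and control FPKM was -0.630. Control FPKM is also the divisor in the log2 ratio, so error in it favours a negative rho and higher ratios at low control levels. Neither the rho nor the count of 8 is thus an independent sign of closer levels.

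The log2 ratio of the members followed the GC content of their transcripts. Of the 11 members under 40% GC, 7 were at least 2-fold higher and 1, CENPW, had a log2 ratio below 0. Among the 14 from 40% to 45% the numbers were 3 and 0, among the 6 from 45% to 50% both were 0, and of the 10 at 50% or more, 0 were at least 2-fold higher and 8 were below 0. Over all genes the same relation held, with 54.5%, 14.98%, 2.29% and 0.797% at least 2-fold higher in the same ranges and 2.12%, 6.62%, 27.4% and 80.7% below 0, so the 8 of 10 members is near the share of all genes. The Spearman correlation was -0.836 across the 41 members and -0.801 across 11913 genes, as a description. GC content also went with the control FPKM of the members (0.590). CENPQ, CENPK and CENPE had 33.9%, 32.9% and 35.3% GC, while CENPM, CDC20 and PLK1 had 61.4%, 57.9% and 57.3%. The same split ran through the complexes, since SPC24 had 53.4% against 40.03% for SPC25, 40.1% for NDC80 and 38.8% for NUF2. With 1 library per group, a difference in base composition between library preparations and an effect of LINC01133 cannot be told apart.

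**Figure D3:**
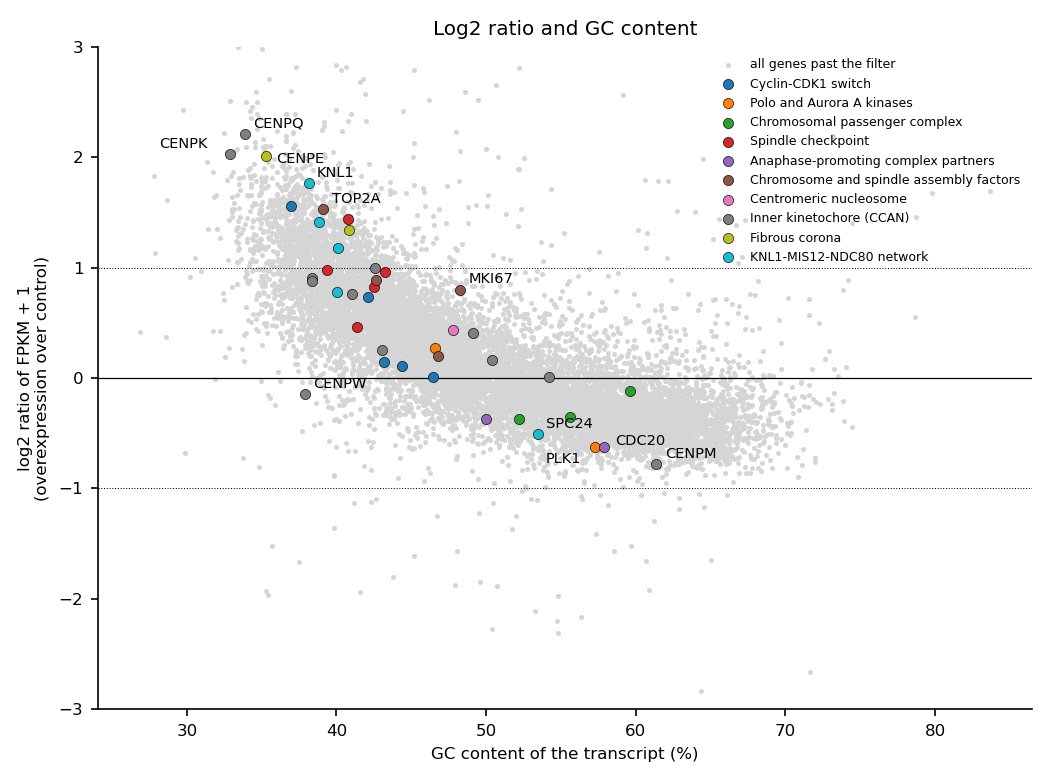
Log2 ratio of FPKM + 1 against the GC content of the transcript, for genes past the filter (light grey) and the 41 members (coloured by role), with dotted lines at 2-fold; 8 genes lie beyond the axis. Members follow the falling band of all genes, with CENPW under it at 37.9% GC and MKI67 at its upper part.

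With the trends on GC content and transcript length over all genes subtracted, the members differed less. The median log2 ratio was 0.18, against 0.08 over all genes. It was above 0 for 28 of the 41, against 62% of all genes. At least 2-fold higher were 0 of the 41, against 1.65%, and CENPQ came nearest with 0.98. At least 1.5-fold higher were 9 of the 41, against 7.17% of all genes: CENPQ (0.98), KNL1 (0.76), CENPE (0.76), TTK (0.74), CENPK (0.71), MKI67 (0.69), TOP2A (0.62), CENPF (0.59) and NUF2 (0.59). The fibrous corona pair and the spindle checkpoint genes except BUB3 stayed above 0, with checkpoint values from 0.11 for MAD2L1 to 0.74 for TTK and -0.24 for BUB3. MKI67, with a GC content of 48.3%, had 0.69 against 0.80 as deposited. INCENP and AURKB turned above 0 and CCNB1, CCNB2, CDC25C, BUB3, CENPC and CENPL below 0, while CDC20, PLK1, UBE2C, CENPM and SPC24 stayed below 0, between -0.22 and -0.17. CENPW was the exception at the other end: its AT-rich transcript of 750 bases was -1.02 with the trends subtracted, the only member at least 2-fold lower, against 0.797% of all genes. After subtraction the correlation of the members' log2 ratio with GC content was -0.453.

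**Figure D4:**
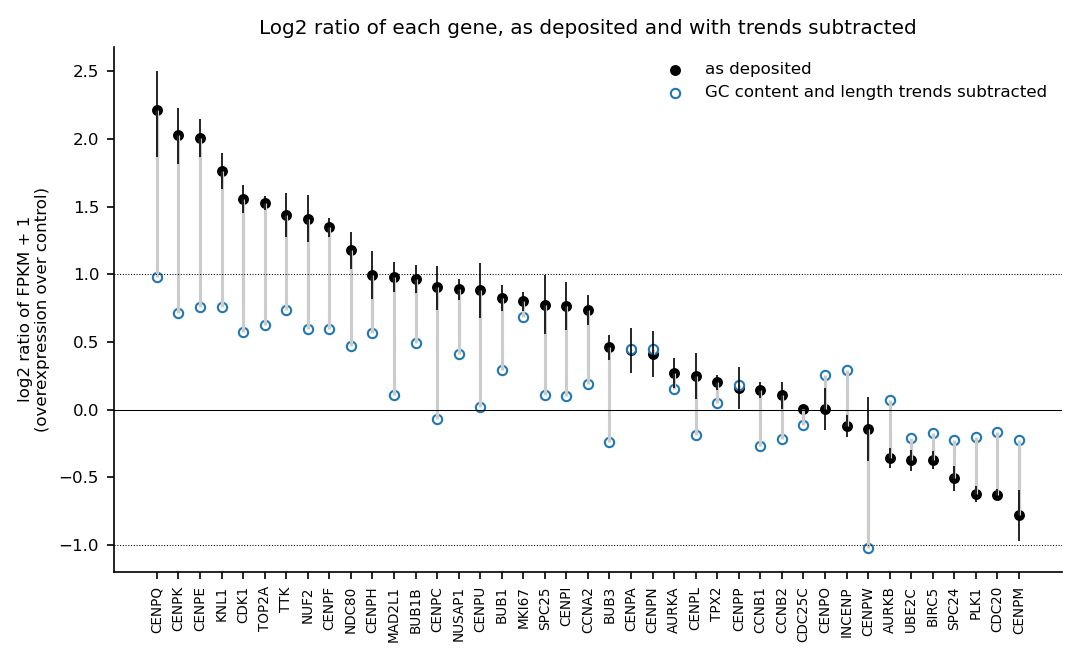
Log2 ratio of FPKM + 1 of each of the 41 genes as deposited (black, with 95% counting intervals) and after subtraction of both trends (open blue circles). Most genes on the left lie above 0 both ways, and the lowest on the right, from CENPM to AURKB, move towards 0. INCENP turns above 0, CCNB1, CCNB2 and CDC25C turn below it, and CENPW drops to -1.02.

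Other genes of the mitotic apparatus, in lists that do not overlap the 41, showed the same mixture. Other kinetochore genes that passed the filter numbered 25, of which 7 were 2-fold higher or more and 0 lower (11.9% and 0.444% of all genes). They had a median of 0.64 and of 0.28 with the trends subtracted. SGO2, the shugoshin that protects centromeric cohesion, had 1.03 and 8.699 (8.46 (6.85 to 10.5)), with a log2 ratio of 0.996 with the trends subtracted. At the other end were the CENP-W-associated subunit CENPX (34.8 and 21.5) and the checkpoint protein MAD1L1 (7.77 and 4.98). Spindle and cytokinesis genes counted 7 of 17 at least 2-fold higher and 0 lower, and the medians were 0.54 and 0.41, the latter the highest of the lists. The spindle pole protein ASPM had 3.86 and 21.7, without an interval, and the cytokinesis factor ECT2 4.45 and 16.7 (3.76 (3.36 to 4.22)), while NUMA1 (12.6 and 9.79) and TACC3 (53.5 and 43.5) were lower.

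The remaining lists lay nearer to all genes in their medians. Of all genes, 11.9% were at least 2-fold higher, and the medians were 0.10 as deposited and 0.08 with the trends subtracted. Subunits and regulators of the anaphase-promoting complex had 4 of 16 at least 2-fold higher and medians of 0.34 and 0.11, from CDC27 (5.15 and 15.1) and ANAPC13 (4.09 and 9.85) to FZR1 (22.9 and 15.9) and ANAPC11 (14.1 and 8.09). Other regulators of mitotic entry and exit had 2 of 19 and medians of 0.03 and -0.02. Among them PLK4, the kinase of centriole duplication (2.14 and 7.95), and MASTL, the Greatwall kinase (4.31 and 11.5), were higher, and MYBL2 (189.8 and 125), a transcription factor of G2/M genes, and the CDK1-inhibiting kinase PKMYT1 (18.6 and 11.9) lower. The 6 condensin subunits had medians of 0.20 and 0.05, the first of which turned to -0.00 by TMM, as that of the entry and exit regulators turned to -0.18. NCAPG (3.93 and 14.2) was the only condensin gene at least 2-fold higher, followed by NCAPG2 (12.8 and 22.3), while NCAPD2 (112 and 93.5) and NCAPH2 (49.6 and 31.05) were lower. No test compared the lists.

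**Figure D5:**
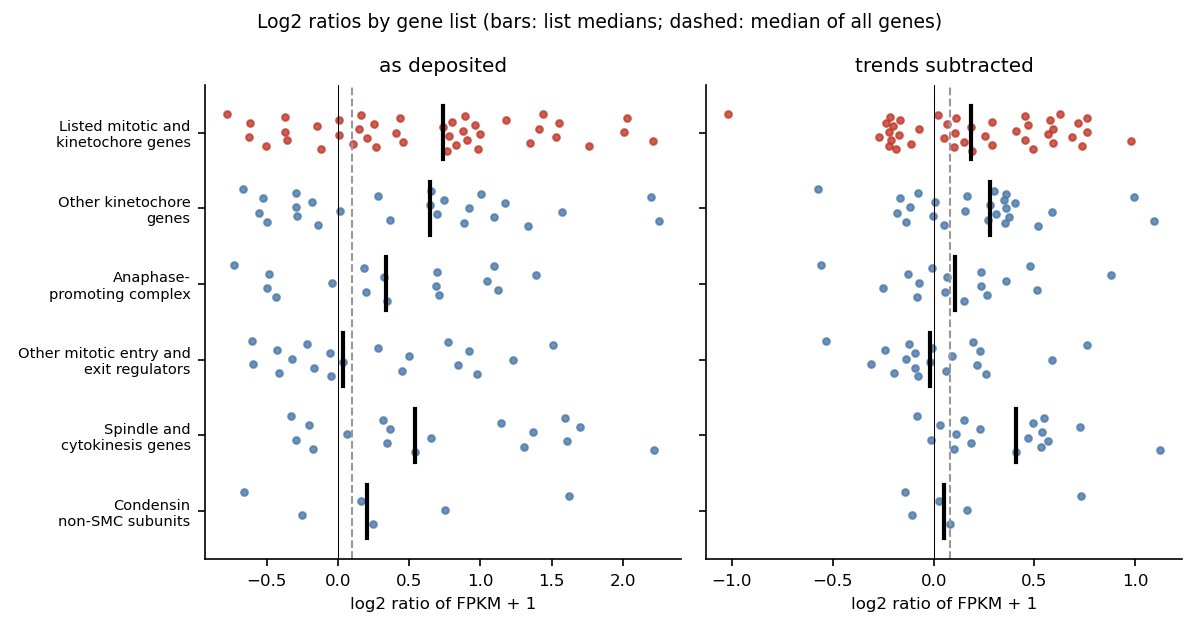
Log2 ratios of FPKM + 1 of the 41 genes (red) and of the 5 other lists (blue), as deposited and after subtraction of both trends; black bars are list medians and the dashed line the median of all genes. Single genes of every list spread over both sides of 0 as deposited, and the spread is smaller with the trends subtracted.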

How the data were processed

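RNA was sequenced from 2 libraries of HGC27 cells, 1 per group, as poly(A)-selected RNA per the labels' protocols. The values the authors deposited, 1 for each gene in each library, were read here as FPKM, since the values multiplied by the merged exon length (GENCODE 29) fall on whole multiples of 1 step, within 0.02 of a fragment, for 94.5% and 94.4% of genes with a length. The submitters' processing notes name the build GRCh38, HISAT2 2.1.0, HTSeq 0.6.0 and Bowtie2 2.2.3. What each tool did, the annotation and the strand setting are not given in the sources used here, so values of overlapping genes and near-identical copies are uncertain.

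From the step, depth and fragments per gene were recovered, for 40 of the 41 members as whole numbers in both libraries. Intervals of 95% are exact, Poisson for a level and Clopper-Pearson for a ratio. The pseudocount was 1 FPKM and the filter a mean of at least 1 FPKM, passed by 11945 genes. Trends on GC content and length of each gene's longest coding transcript that has a 3′ UTR (otherwise its longest transcript) were fitted by lowess (span 0.3, statsmodels 0.14.6) and subtracted. Scripts were tested on simulated data. Other scalings, filters, pseudocounts and fold thresholds were alternatives. All members are named, and of each other list the 2 genes with the highest and the 2 with the lowest log2 ratio at a mean of at least 2 FPKM, except 1 gene that is not reported here. The members and lists were chosen with earlier results of these data known. Promoter windows are those of RefSeq. No batch was given in the labels.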

Additional observations from a re-analysis of the deposited data

How the results depend on the processing

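Each group held 1 library, so every value describes these 2 libraries. No paired analysis was possible because the design has a single library on each side. Depth sets the precision of the genes with few fragments, such as CENPQ with 16 in the control. For the values that moved, the cause was not tested.

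The median log2 ratio of 0.74 became 0.62 by median-of-ratios scaling, 0.53 by TMM, 0.33 by upper-quartile scaling, 0.44 over the 35 members with a mean FPKM of at least 5, 0.60 as a mean, and 0.18 with the GC content and length trends or the GC content trend alone subtracted. The 10 genes at least 2-fold higher became 6 at a mean FPKM of at least 5, 21 at 1.5-fold, 3 at 4-fold and 0 with both trends or the GC content trend alone subtracted. By the other scalings they were 8 to 10, 14 with a pseudocount of 0.1, and 10 without a filter and with an interval that leaves out 1. The 0 genes at least 2-fold lower became 3 by upper-quartile scaling, 3 at 1.5-fold and 1, CENPW, with both trends or the GC content trend alone subtracted. Of all genes, 0.444% were at least 2-fold lower as deposited, 5.29% at least 1.5-fold lower, and 0.797% at least 2-fold lower with both trends subtracted. The log2 ratio changed sign for 3 members by median-of-ratios scaling, 5 by TMM, 8 by upper-quartile scaling and 8 with either subtraction of trends. None of these was at least 2-fold apart in FPKM + 1 as deposited, but CENPC, with both subtractions, and CENPU, with that of the GC content trend alone, had a deposited FPKM ratio above 2. The share of all genes that changed sign was not counted.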
